A study of Drosophila melanogaster with 3 samples.

Results

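The genes described here are the 7 basic helix-loop-helix (bHLH) genes of the Enhancer of split complex, E(spl)mdelta-HLH, E(spl)mgamma-HLH, E(spl)mbeta-HLH, E(spl)m3-HLH, E(spl)m5-HLH, E(spl)m7-HLH and E(spl)m8-HLH, together with gro (groucho), the corepressor gene beside them. These 8 genes, of 13945 protein-coding genes on the 6 chromosome arms used, were taken by name. For each, binding summits were collected from the gene body and the 2 kb upstream of it, a span called the territory below. The assay was chromatin immunoprecipitation with sequencing (ChIP-seq) of the proneural bHLH factor Scute (sc) in whole Drosophila melanogaster embryos aged 0 to 14 h. There were 3 biological replicates of a single group, so no groups were compared.

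All embryos came from a transgenic line carrying Scute with GFP fused to its C terminus, and male and female embryos were pooled before an antibody against GFP was used. Tissues and ages were therefore mixed, and few bound cells cannot be told apart from weak binding in many cells. The authors gave 1 list of 30000 regions for each replicate, 1 for the pooled replicates, and a thresholded set of 3612 regions, which were the 3612 strongest of the pooled list. Each region has a summit, the base of its highest signal. Read depth is unknown because the lists hold no read counts. Signals belong to the scale of their own list, so they are given below as a rank, with 1 the strongest, or as a relative signal, the signal divided by the median of that list's 3612 strongest regions. A region was said to be found in a replicate when it ranked among the 3612 strongest there. An exact sign-flip test over 3 replicates cannot give a p below 0.25, so no test was made and spreads are given as SDs and ranges.

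In lateral inhibition, cells of a proneural cluster signal to their neighbours through Delta and Notch. In the receiving cell the DNA-binding protein Suppressor of Hairless activates the E(spl) genes, whose bHLH products carry a C-terminal tetrapeptide that recruits Groucho and repress proneural genes such as sc. Proneural proteins also act on some E(spl) promoters directly, through a 7-base E box with the letters GCAGCTG or GCAGGTG, bound as a dimer with Daughterless. Paired head-to-head Suppressor of Hairless sites beside such an E box are a known arrangement at E(spl)m8-HLH.

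Thresholded Scute summits lay in the territories of 5 of the 8 genes, E(spl)mdelta-HLH, E(spl)m3-HLH, E(spl)m7-HLH, E(spl)m8-HLH and gro, against 20.5% of all protein-coding genes. The territories of 4 genes, those 5 without E(spl)m8-HLH, held at least 2 summits, against 5.41% of genes. The same 4 genes held a summit among the 361 strongest of the set, against 3.13%, and a region found in all 3 replicates, against 14.9%. All 5 genes had a summit within 500 bp upstream of an annotated transcript start, against 11.8% of genes. The territories are not independent, since E(spl)m8-HLH and gro share a region, and the 5 genes together held 8 distinct regions. No thresholded summit lay in a territory of E(spl)mgamma-HLH, E(spl)mbeta-HLH or E(spl)m5-HLH.

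The whole complex, with gro and 2 kb on the upstream side of its first gene, spans 54.3 kb of chromosome arm 3R and held 13 thresholded summits. They are numbered 1 to 13 along the plus strand. Windows of that length laid end to end across the arms held a median of 1 summit, and 1 of the 2462 windows (0.0406%) held as many as 13. Some of these windows cover parts of the complex itself, and whether the window with 13 was among them was not recorded. The complex window was anchored on the genes and those windows were not, so the comparison describes density only.

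**Figure D1:**
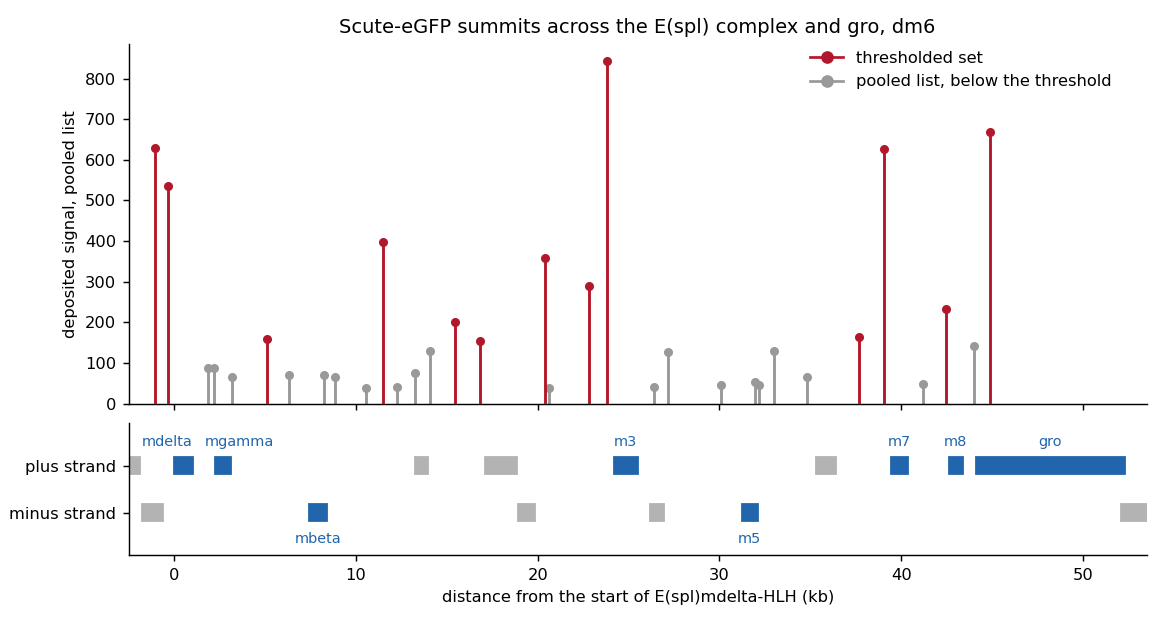
Summits of the pooled list across the complex, with the deposited signal on the vertical axis and distance from the start of E(spl)mdelta-HLH in kb on the horizontal axis. Red stems are the 13 thresholded summits and grey stems lie below the threshold; blue boxes are the 8 genes and grey boxes other genes. The tallest stem, a signal of 844, stands before m3, and the stems around mgamma, mbeta and m5 stay grey except for 1 between mgamma and mbeta.

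The DNA under 4 of the strongest summits is shown first. None of these windows holds the 7-base proneural site. Its absence is the usual case, since 4.62% of all 3612 thresholded windows held it. Each runs 100 bp to either side of the pooled summit on the plus strand of dm6, read from the Release 6 genome, and lies outside annotated exons. Capitals would mark the proneural sites GCAGCTG and GCAGGTG and the Suppressor of Hairless sites CGTGGGAA, TGTGGGAA, CGTGAGAA and TGTGAGAA on either strand, and there are none. The window of region 1, which touches an exon, held none either and is not shown. Their order follows the relative signal, with E(spl)m3-HLH at chr3R:26021356-26021556, gro at chr3R:26042401-26042601, E(spl)m7-HLH at chr3R:26036596-26036796 and E(spl)mdelta-HLH at chr3R:25997188-25997388.
E(spl)m3-HLH, region 9: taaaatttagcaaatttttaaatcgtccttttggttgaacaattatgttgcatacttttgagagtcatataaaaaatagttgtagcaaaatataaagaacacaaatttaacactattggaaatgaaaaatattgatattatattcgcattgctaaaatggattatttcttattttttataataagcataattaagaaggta
gro, region 13: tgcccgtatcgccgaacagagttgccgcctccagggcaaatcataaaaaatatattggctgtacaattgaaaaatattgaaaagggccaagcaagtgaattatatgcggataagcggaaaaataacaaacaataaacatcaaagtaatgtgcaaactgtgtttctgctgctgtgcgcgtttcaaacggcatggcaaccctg
E(spl)m7-HLH, region 11: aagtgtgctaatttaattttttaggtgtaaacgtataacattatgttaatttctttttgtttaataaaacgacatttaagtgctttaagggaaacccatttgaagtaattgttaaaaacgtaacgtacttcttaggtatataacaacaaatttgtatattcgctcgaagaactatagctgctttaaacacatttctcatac
E(spl)mdelta-HLH, region 2: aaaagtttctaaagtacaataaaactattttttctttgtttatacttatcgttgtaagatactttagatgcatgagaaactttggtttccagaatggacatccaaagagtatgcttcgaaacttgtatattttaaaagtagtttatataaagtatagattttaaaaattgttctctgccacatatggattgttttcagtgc

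The windows at E(spl)m8-HLH (chr3R:26040000-26040200) and at E(spl)m5-HLH (chr3R:26030549-26030749) are shown because both hold a head-to-head pair of Suppressor of Hairless sites and a proneural site. The E(spl)m8-HLH summit was in the thresholded set and the E(spl)m5-HLH summit was only in the longer pooled list. Both are printed on the plus strand, which is the coding strand of E(spl)m8-HLH and the opposite strand for E(spl)m5-HLH. Capitals mark the sites.
E(spl)m8-HLH, region 12: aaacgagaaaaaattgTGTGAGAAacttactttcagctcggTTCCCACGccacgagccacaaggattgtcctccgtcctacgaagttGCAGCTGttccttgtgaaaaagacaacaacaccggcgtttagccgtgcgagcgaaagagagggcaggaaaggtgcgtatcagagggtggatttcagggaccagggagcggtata
E(spl)m5-HLH, pooled list only: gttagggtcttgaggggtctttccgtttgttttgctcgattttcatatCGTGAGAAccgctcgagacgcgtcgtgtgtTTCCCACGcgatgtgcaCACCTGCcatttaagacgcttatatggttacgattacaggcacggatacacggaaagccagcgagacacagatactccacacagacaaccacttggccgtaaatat

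E(spl)m3-HLH (chr3R:26021823-26023127, plus strand) had the strongest region of the 8 genes. Region 9, at chr3R:26021366-26021629, had its summit 367 bp upstream of the gene's start in intergenic DNA. It ranked 182, 113 and 94 in replicates 1, 2 and 3, with relative signals of 3.06, 3.55 and 3.89 (mean 3.50 ± 0.419, SD, n = 3). In each replicate this was the highest value of the 8 genes, although its lowest value, in replicate 1, lay within the range of E(spl)mdelta-HLH. Its 201-bp window was 21.9% G+C and held no CANNTG E box of any kind, while 60.1% of all thresholded windows held at least 1. A weaker region 8, with its summit 1364 bp upstream of E(spl)m3-HLH and 617 bp from the start of the noncoding gene lncRNA:CR43644, had relative signals of 0.918, 1.40 and 1.36. Region 9 exceeded region 8 in all 3 replicates.

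By the distance between log2 relative signals over the 3 replicates, Toll-7 (distance 0.116), CG1142 (0.136) and Pde1c (0.139) had the regions most like that of E(spl)m3-HLH among 2758 genes with a region matched in every replicate. Toll-7, a Toll-family receptor gene, had relative signals of 3.00, 3.80 and 3.76, at a summit 265 bp upstream of its start. These genes were picked by that likeness, and nothing further was read from it.

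The corepressor gene gro (chr3R:26041736-26049911, plus strand) encodes a WD-repeat protein that acts with many DNA-binding repressors. Its own region 13, at chr3R:26042380-26042638, had a summit 765 bp inside the gene, in an intron and 140 bp upstream of a later annotated start, at position 26042641. The relative signals were 2.60, 2.63 and 2.97 (2.73 ± 0.206, SD, n = 3) and the ranks 280, 259 and 199. The summit positions of the 3 replicates spanned 4 bp, against a median span of 50 bp over all thresholded regions. In the signal and position of this region the replicates were closer to each other than at E(spl)m3-HLH, where summits spanned 57 bp.

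E(spl)mdelta-HLH (chr3R:25997621-25998633, plus strand) is the first bHLH gene of the complex and had 2 strong regions. Region 1 (chr3R:25996491-25996774), with its summit 1033 bp upstream, had relative signals of 2.67, 2.17 and 3.25 (2.70 ± 0.541, SD, n = 3). A proneural site, GCAGGTG read on the minus strand, lay 137 bp from its summit, inside the region but outside its window. Region 2 (chr3R:25997080-25997414), with its summit 333 bp upstream, had 2.66, 2.00 and 2.19 (2.28 ± 0.342, SD, n = 3). Region 1 exceeded region 2 in all 3 replicates, by little in replicate 1, although their ranges overlapped, and summits of both spanned 12 bp over the replicates. The nearest protein-coding start was in each case that of CG43116, an uncharacterised gene on the opposite strand, at 408 bp for region 1, which lies in its intron, and 292 bp for region 2. Which gene these regions act on was not tested.

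E(spl)m7-HLH (chr3R:26037038-26038019, plus strand) had a strong region near its start and a weak one farther away. Region 11 (chr3R:26036626-26036841), 342 bp upstream, had relative signals of 2.77, 3.05 and 2.28 (2.70 ± 0.392, SD, n = 3) and ranked 232, 162 and 395. Region 10, 1750 bp upstream, had 0.498, 0.665 and 0.951 and was found in 2 of the 3 replicates. The weak region held a proneural site, GCAGGTG, 87 bp from its summit. The window of the strong region held none, and the nearest copies of GCAGGTG lay 114 and 212 bp from its summit on the side of the gene.

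E(spl)m8-HLH (chr3R:26040240-26041008, plus strand) is the last bHLH gene before gro. Its single region 12 (chr3R:26039885-26040314) had a summit 140 bp upstream of the start and 1636 bp upstream of that of gro. The relative signals were 1.47, 0.960 and 0.547 (0.991 ± 0.460, SD, n = 3), with ranks of 938, 1932 and 4574. Replicate 3 was the lowest and fell outside the 3612 strongest, so the region was found in replicates 1 and 2. Without replicate 1, or without replicate 2, the region was not held by both of the others, and 4 of the 8 genes kept a call. GCAGCTG lay 10 bp from the summit and the Suppressor of Hairless sites 80.5 and 55.5 bp from it.

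The remaining 3 bHLH genes were weak in every list. The strongest pooled region in the territory of E(spl)m5-HLH (chr3R:26028854-26029735, minus strand) ranked 4274, and the strongest in each replicate had relative signals of 0.493, 0.514 and 0.449. For E(spl)mgamma-HLH (chr3R:25999851-26000761, plus strand) the pooled rank was 7405 and the relative signals were 0.624, 0.424 and 0.392, at summits 259 bp upstream, 50 bp downstream and 343 bp upstream of the start. Its replicate 1 region, at rank 3839, had a higher relative signal than E(spl)m8-HLH had in replicate 3 (0.547). For E(spl)mbeta-HLH (chr3R:26005046-26006023, minus strand) the pooled rank was 10225 and the relative signals were 0.368, 0.336 and 0.346. At E(spl)m5-HLH the strongest summits of the 3 replicates lay 837 to 923 bp upstream, while at E(spl)mbeta-HLH that of replicate 3 lay 1902 bp upstream and the other two inside the gene. The lowest thresholded signal was 145.8, against 130 for E(spl)m5-HLH, 87.7 for E(spl)mgamma-HLH and 71.6 for E(spl)mbeta-HLH.

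**Figure D2:**
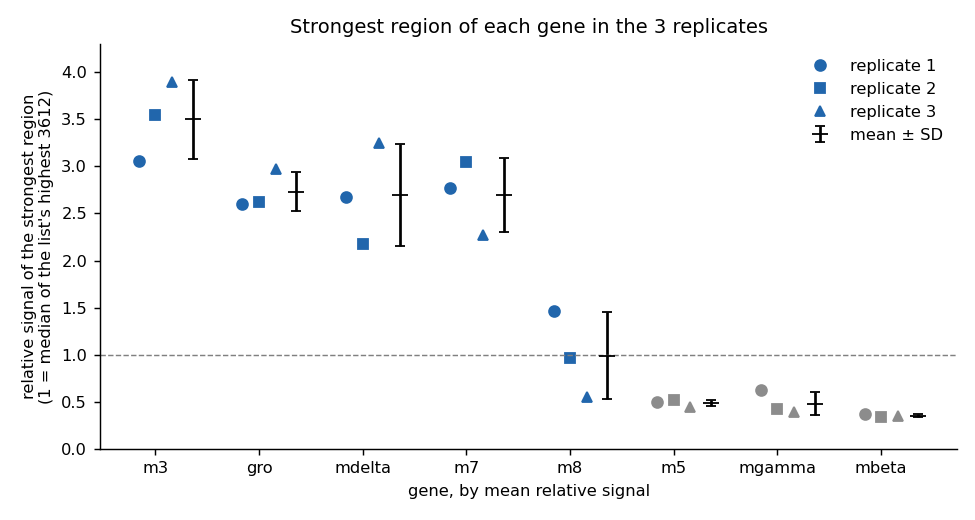
Relative signal of the strongest region in the territory of each gene, with 1 symbol per replicate and the mean ± SD (n = 3) beside it; blue genes have a thresholded summit and the dashed line is the median of the 3612 strongest regions of each list. The values of m3 lie between 3.06 and 3.89, those of gro, mdelta and m7 overlap one another, m8 straddles the line, and m5, mgamma and mbeta reach at most 0.624.

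Ordered by the mean relative signal of the strongest region, E(spl)m3-HLH (3.50) came before gro (2.73), and its 3 values did not overlap those of gro. The next neighbours, gro, E(spl)mdelta-HLH (2.70) and E(spl)m7-HLH (2.70), did not differ beyond their spread. E(spl)m7-HLH exceeded E(spl)m8-HLH (0.991) 2.72-fold in the means, in all 3 replicates and without overlap. E(spl)m8-HLH lay above E(spl)m5-HLH (0.485) in all 3 replicates, while E(spl)m5-HLH and E(spl)mgamma-HLH (0.480) overlapped. E(spl)mbeta-HLH (0.350) was the lowest, below every value of E(spl)mgamma-HLH. The 8 regions had a median relative signal of 2.49, against 0.969 for all thresholded regions, and a median pooled rank of 327.5 against 1806.5. They were found in all 3 replicates in 6 of 8 cases, against 62.5% of all thresholded regions, which is near the background for 8 regions.

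**Figure D3:**
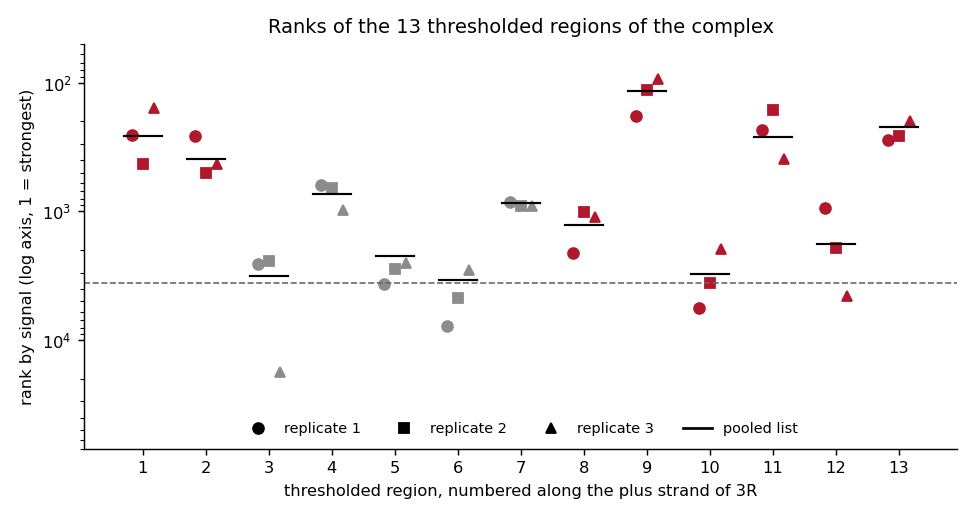
Rank of each of the 13 thresholded regions of the complex in the 3 replicates (symbols) and in the pooled list (bars), on a log axis with the strongest at the top; red regions lie in a territory of the 8 genes and the dashed line is rank 3612. Regions 1, 2, 9, 11 and 13 rank 507 or better in every list, and region 3 falls to rank 17772 in replicate 3.

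Pairs of Suppressor of Hairless sites were then located, a search added after the sites in the windows had been seen. A pair was a site read on the plus strand followed by 1 read on the minus strand with at most 30 bp between them. E(spl)m3-HLH was left out of this search. Such a pair lay within 2 kb upstream of 6 of the 7 genes searched, all but E(spl)mbeta-HLH, against 13 of 13944 protein-coding genes (0.0932%), those 6 included. The pairs of gro and E(spl)m8-HLH are the same stretch of DNA. Leaving aside the stretch upstream of E(spl)m3-HLH, whose sites are not counted in any of the totals on pairs, the search found 7 pairs in the complex, and in 5 of them the gap was 17 bp. The E(spl)mdelta-HLH pair has a gap of 15 bp and lies in a coding exon of CG43116. Those of E(spl)mgamma-HLH and E(spl)m7-HLH have gaps of 17 bp and are intergenic. These 3 stretches, outside the windows above, are shown with the sites in capitals, at chr3R:25996282-25996312, chr3R:25999557-25999589 and chr3R:26036369-26036401 on the plus strand.
E(spl)mdelta-HLH pair: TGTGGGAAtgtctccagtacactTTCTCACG
E(spl)mgamma-HLH pair: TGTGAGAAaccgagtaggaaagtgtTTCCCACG
E(spl)m7-HLH pair: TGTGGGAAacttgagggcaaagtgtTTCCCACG

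The summits stood in different places relative to these pairs. At E(spl)mdelta-HLH and E(spl)m7-HLH the middle of the pair lay 291 and 311 bp from the nearest summit, which was a thresholded one. At E(spl)m8-HLH it lay 68 bp from the thresholded summit, and at E(spl)m5-HLH 33.5 bp from a pooled summit below the threshold. At E(spl)mgamma-HLH a pooled summit of rank 7516 lay 67 bp away. A further pair, between E(spl)mgamma-HLH and E(spl)mbeta-HLH, was 100 bp from the summit of region 3, and another, before the Bearded-family gene E(spl)m4-BFM, was 69 bp from a pooled summit of rank 4389. Of these 7 pairs, 5 had a pooled summit within 100 bp and 2 had a thresholded one. The share of other stretches of the complex with a summit as near was not counted, so these counts describe positions only. The pooled list also holds weak regions, since 6504 of its 30000 had a q-value under 5%.

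The proneural site lay close to some pairs and far from others. It stood 10 bp from the pair at E(spl)mgamma-HLH, 9 bp from it at E(spl)m5-HLH and at the pair beside region 3, and 38 bp from it at E(spl)m8-HLH. At E(spl)mdelta-HLH and E(spl)m7-HLH the nearest copy was 124 and 405 bp from the pair, and before E(spl)m4-BFM it was 118 bp away. The E(spl)mgamma-HLH and E(spl)m5-HLH territories had no thresholded summit, and E(spl)m8-HLH had the lowest mean relative signal of the 5 genes with a summit in the set. Region 3 is thresholded, with a mean relative signal of 0.630. The pairs at E(spl)m8-HLH and region 3 lay 68 and 100 bp from a thresholded summit. For E(spl)mdelta-HLH, E(spl)m7-HLH and E(spl)m4-BFM the distances were 291, 311 and 3418 bp. For E(spl)mgamma-HLH and E(spl)m5-HLH they were 2285 and 4672.5 bp. Whether these distances and the signal are related was not tested.

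**Figure D4:**
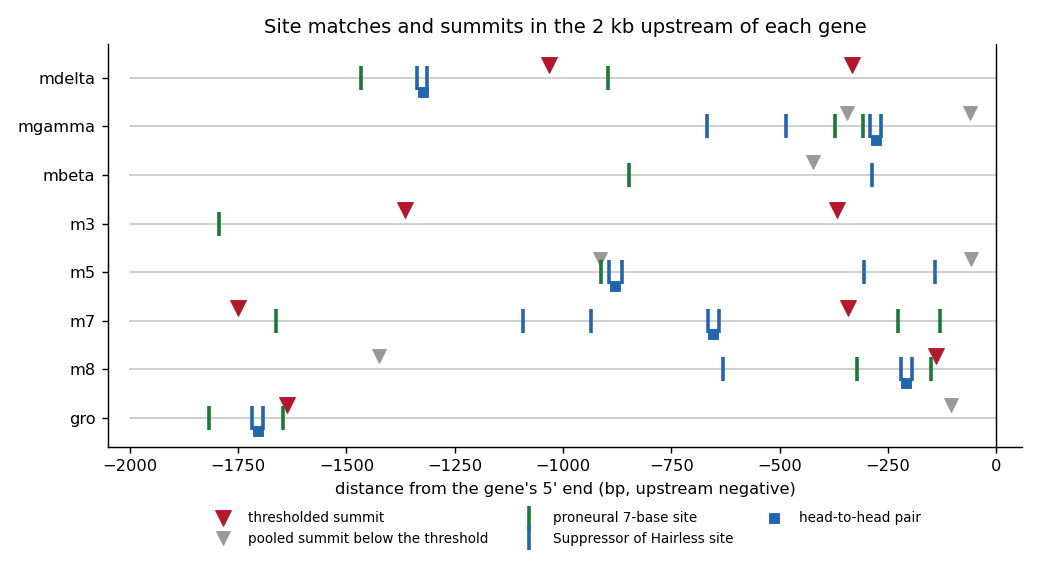
Matches to the proneural site (green) and to Suppressor of Hairless sites (blue, with a square under each head-to-head pair) in the 2 kb upstream of the 8 genes, with thresholded summits in red and other pooled summits in grey; the horizontal axis is the distance from the 5' end in bp. Green bars stand next to the paired blue bars at mgamma, m5, m8 and in the shared stretch of gro, while the nearest red summits of mdelta and m7 stand 291 and 311 bp from theirs; blue marks are not drawn for m3.

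Across the 8 windows of 201 bp at the regions, 2 held GCAGCTG or GCAGGTG, against 4.62% of all 3612 windows. They were regions 10 and 12, the lowest and next-lowest of the 8 in mean relative signal (0.705 and 0.991). This pairing depended on the window. With 200 bp to either side, regions 1 and 11, both at 2.70, also held the site, 137 and 114 bp from their summits. Over the whole thresholded set, 201-bp windows with the site had a median pooled rank of 1837 and windows without it 1802. Any CANNTG E box was present in 6 of 8 windows, against 60.1% of all windows, and regions 1 and 9 held none. A Suppressor of Hairless site was present in 1 of 8 windows, region 12, against 1.58%, and a head-to-head pair in that window and 1 other of the 3612. The GATA-type letters AGATAA or TGATAA were in 0 of 8 windows, against 30.9%. These are matches of letters in these windows and say nothing about which protein was bound. G+C content ranged from 21.9% at region 9 to 51.2% at region 12, with a median of 30.6% against 34.3% for all windows, and was highest in the 2 windows with the proneural site (51.2% and 46.3%).

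In the 500 bp upstream of the start, the proneural site was present at 3 of 8 genes, E(spl)mgamma-HLH, E(spl)m7-HLH and E(spl)m8-HLH, against 14.5% of promoters. A Suppressor of Hairless site was present at 4 of 8, E(spl)mgamma-HLH, E(spl)mbeta-HLH, E(spl)m5-HLH and E(spl)m8-HLH, against 5.06%. Of those 4 genes, E(spl)m8-HLH had a thresholded summit. At E(spl)mgamma-HLH, GCAGCTG ended 369 bp and GCAGGTG 305 bp before the start, with no thresholded summit in the territory.

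Among the 5 other genes inside the complex, 3 had a thresholded region, against 20.5% of all protein-coding genes. E(spl)malpha-BFM and E(spl)m2-BFM, Bearded-family genes whose products act against Neuralized, had regions with mean relative signals of 1.68 ± 0.197 and 1.52 ± 0.0317 (SD, n = 3), below the strongest regions of E(spl)m3-HLH, E(spl)mdelta-HLH, E(spl)m7-HLH and gro in every replicate. Kaz-m1, listed as E(spl)m1 and a Kazal-type protease inhibitor gene, had 2 weaker regions, of which the stronger reached 0.745 ± 0.0925. E(spl)m4-BFM and E(spl)m6-BFM had none, and their best pooled ranks were 4389 and 11836.

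Other repressors of the Hairy and E(spl) family, outside the complex, had a thresholded region in 2 of 5 cases, against 20.5% of all protein-coding genes. The pair-rule gene hry (hairy) had a summit 10 bp upstream of its start that ranked 4137, 2925 and 4294, and the clock repressor gene cwo had an intronic region that ranked 1109, 1786 and 1477. The neural repressor gene dpn, Hey and Sidpn had none, with best pooled ranks of 8169, 11893 and 7762. The relative signals of hry and cwo stayed below those of E(spl)m3-HLH in every replicate. Those of cwo (1.34, 1.01 and 1.14, mean 1.16) exceeded E(spl)m8-HLH in the mean and in replicates 2 and 3, but not in replicate 1. The mean of hry, 0.640, lay above the means of E(spl)m5-HLH, E(spl)mgamma-HLH and E(spl)mbeta-HLH.

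Of 17 genes acting in Notch signalling upstream of the complex, 7 had a thresholded region, against the same background of 20.5%. They were N itself (ranks 515, 453 and 390), mam, a coactivator of Notch with 6 regions (strongest 333, 483 and 303), numb, an inhibitor of Notch (137, 136 and 167), aph-1 of the gamma-secretase complex (454, 587 and 424), fng, a glycosyltransferase acting on Notch (1039, 1439 and 1280), neur, a ubiquitin ligase for Delta (1950, 941 and 1733), and kuz, a protease that cleaves Notch (7553, 2632 and 3615). The nearest start to the aph-1 region was that of Snx21, to the mam region that of CG18371 and to the N region that of CG18508, although the mam and N regions lie in introns of mam and N. The genes Delta, Ser and Su(H) had none, with best pooled ranks of 8082, 15967 and 4832. Also without one were mib1 (3709), spdo (4447), Nct (4808), pen-2 (6391) and Su(dx) (14998), of which mib1 came nearest the threshold. H and Psn had no pooled summit in their territories.

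Of 10 proneural factors and their regulators, 1 had a thresholded region, against 20.5% of all protein-coding genes. It was da (daughterless), with ranks of 3964, 3521 and 2156 at a summit 131 bp from the start of mRpS7. Of 6 other corepressor genes, 5 had a thresholded region, against the same 20.5%. Gug (101, 50 and 79) and Smr (180, 163 and 150) were the strongest, with relative signals of 3.82, 4.29 and 4.05 for Gug against 3.06, 3.55 and 3.89 for E(spl)m3-HLH. Sin3A, ebi and HDAC1 had mean relative signals of 1.35, 1.56 and 1.54. The HDAC1 region lies in an intron of Src64B. Several of these genes are long, and a longer territory holds more summits at the same density.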

How the data were processed

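Scute-eGFP ChIP-seq regions from 3 biological replicates of whole embryos were analysed as the authors deposited them in dm6. Chromatin was sonicated to 200 to 800 bp, per the labels. Each deposited list gives, by the layout of its columns, a signal per region on the scale of that list and the −log10 of a q-value, and the thresholded set passed an irreproducible discovery rate procedure, as the authors' deposited text says. No aligner or peak caller is named in the sources used here. The control alignment was not analysed here and the dm3 lists were not used here. Read depth is unknown, so no counting intervals are given.

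Gene models were Ensembl release 115 and sequence was Release 6. A thresholded region took the strongest replicate region whose nearest thresholded summit, within 250 bp, was its own. Motifs in 9 groups were sought on both strands, 100 bp to either side of summits and 500 bp or 2 kb upstream of starts; CAGCTG and GCAGCTG overlap CANNTG, and CACGTG is counted in both of its groups. Calculations used Python 3.11.15 and numpy 2.4.6, figures matplotlib 3.10.9, and the scripts were tested on simulated lists.

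The 8 genes, the other lists and the alternatives were chosen with earlier results of these data known. Named genes were the 8, every listed gene with a thresholded summit, all genes of the lists for the complex and the Hairy and E(spl) family, the 3 genes most like E(spl)m3-HLH, and any gene whose start was nearer a region. The Notch signalling genes without a thresholded region were named after their values were seen. Alternatives covered the territory, the threshold, the matching distance, the scaling, the motif window and leaving out each replicate. The Suppressor of Hairless sites upstream of E(spl)m3-HLH are not reported here.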

Additional observations from a re-analysis of the deposited data

Results flagged for a closer look

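Regions of the pooled list below the threshold, which the counts above do not use, had a q-value under 5% in the territories of 2 of the 8 genes. The share of all protein-coding genes with such a region was not counted, so the 2 are described only. In the whole pooled list 6504 regions had a q-value under 5%, thresholded ones counted too. No control list was analysed, so the regions of these 2 genes were set against that q-value only. At E(spl)m5-HLH the region at chr3R:26030434-26030863, with its summit 914 bp upstream, had a pooled signal of 129.5 and a pooled q-value of 0.00269. Its q-values in replicates 1, 2 and 3 were 0.0875, 0.0275 and 0.0449, so replicate 1 did not pass. The proneural site at chr3R:26030644-26030650 holds this summit. At gro the region at chr3R:26041415-26041844, with its summit 106 bp upstream of the first start, had a pooled signal of 142.0, rank 3758 and a q-value of 0.00120. It ranked 2833, 5019 and 3713 in the replicates, with q-values of 0.00371, 0.0178 and 0.00175, so all 3 passed. What sets these regions below the threshold was not tested.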

How the results depend on the processing

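The count of 5 of 8 genes depended on the span searched. With the gene body alone 1 gene, gro, had a thresholded summit, against 1288 of all protein-coding genes and 10 of the 43 listed pathway genes in place of 2858 and 18. With 5 kb upstream the count was 7 (3730 of all genes), with 2 kb on both sides 6 (3488), and with all pooled regions under a q-value of 5% it was 6 (4127), E(spl)m5-HLH joining. By nearest start within 5 kb it was again 5, but with E(spl)mgamma-HLH in place of E(spl)mdelta-HLH. The 1806 strongest regions kept the same 5 genes and 1778 of all genes. Leaving out each replicate gave 4 to 5 genes, 2252 to 2275 of all genes, 14 to 16 listed genes, and a median relative signal of 2.38 to 2.47. Dividing by the mean of the strongest regions in place of the median gave 1.88 instead of 2.49. Each list has 1 such divisor for all its regions, so ratios between regions of a replicate stayed the same. The proneural site was in 1 window at 50 bp to either side of the summit (1.77% of all), 4 at 200 bp (11.3%) and 4 whole regions (10.2%), in place of 2 (4.62%). The wider windows and the whole regions added the strong regions 1 and 11. Order by percentile of rank exchanged only regions 1 and 11. With 3 replicates of 1 group, no analysed control and unknown depth, the binding of single genes cannot be tested. The settings tried were planned; the search for site pairs was not.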
